A study of Mus musculus with 6 samples.

Results

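The response to castration was followed across all genes in Nkx-marked epithelial cells of the mouse prostate. The members were the 4 libraries whose labels name Nkx-positive cells, 2 from castrated and 2 from intact males, of 6 libraries in the series. Nkx-marked cells came from male mice in which Nkx3.1-CreER(T2), an inducible recombinase under the Nkx3.1 promoter, was combined with a Rosa26 EYFP reporter. Controls and castrated mice carried the same alleles, surgery was done (or not) at 8 weeks of age, and EYFP-positive cells were sorted 4 weeks later. The other pair, intact Clu-CreER(T2) males with a tdTomato reporter, entered the filter, the scaling and the estimate of spread but no contrast here. The labels give no time of Cre induction, so the marked cells are those in which the Nkx3.1 promoter had been active when the recombinase was switched on, and the reporter stays on whatever that promoter does later. Nor do they say whether the paired libraries of each group are from different mice, so p-values measure the spread between libraries, which may be technical (n = 2 per group throughout). The Nkx-marked libraries are called intact 1, intact 2, castrate 1 and castrate 2, and the others Clu 1 and Clu 2.

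Luminal cells of the prostate make seminal fluid under the control of androgen, a steroid hormone of the testis. Castration removes testicular androgen, the gland regresses, and the luminal cells that survive stop most of their secretion until androgen returns. A secretory cell needs a large endoplasmic reticulum (ER), where new proteins are threaded through a channel, folded by chaperones, linked by disulphide bonds and given sugar chains, and from which coated vesicles carry them to the Golgi. Sensors in the ER membrane match that capacity to the load, a programme called the unfolded protein response.

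Counts assigned to genes totalled 10542213 and 10220118 in intact and 17412874 and 14326063 in castrate, and levels are given as CPM, counts scaled to the library's total and its TMM factor. Genes with at least 1 count numbered 18516 in castrate 1 and between 15045 and 15261 in the other 3 libraries. All 15 general epithelial markers had counts in every Nkx library, and 4 of them rose and 1 fell. The 16 luminal prostate markers in the table summed to 19217, 23263, 6127 and 7445 CPM in intact 1 and 2 and castrate 1 and 2, with Folh1 at 0 in all 4. Both groups thus carried the markers of prostate epithelium, and the luminal sum was lower in both castrate libraries. In the same order the 20 basal markers summed to 6654, 6744, 6285 and 3976 CPM. Stromal RNA was highest in castrate 1: the 17 fibroblast markers summed to 885, 773, 1317 and 235.1 CPM, the 15 smooth muscle markers to 406, 364, 2498 and 717 CPM and the 15 endothelial markers to 109.6, 73.2, 598 and 90.0 CPM. The 30 leukocyte markers summed to 174, 155, 311 and 66.8 CPM with S100a9 at 0 in all 4, and the 9 seminal vesicle markers in the table to 83.6, 151, 0.561 and 0 CPM. Of tested luminal markers 7 of 15 fell and 3 rose, of basal ones 4 of 20 fell and 0 rose, of smooth muscle ones 0 of 15 fell and 7 rose, of fibroblast ones 0 of 17 fell and 1 rose and of seminal vesicle ones 4 of 6 fell and 0 rose. The calls of epithelial, basal, fibroblast and smooth muscle markers, and the rises of luminal ones, were lost without either intact library. Some falls of luminal and seminal vesicle markers were lost as well. With castrate 1 left out, 13 basal and 8 fibroblast markers fell, and with castrate 2 left out, 13 smooth muscle, 14 endothelial and 8 fibroblast markers rose. In these bulk samples fewer cells of a type and less RNA per cell cannot be told apart.

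**Figure D1:**
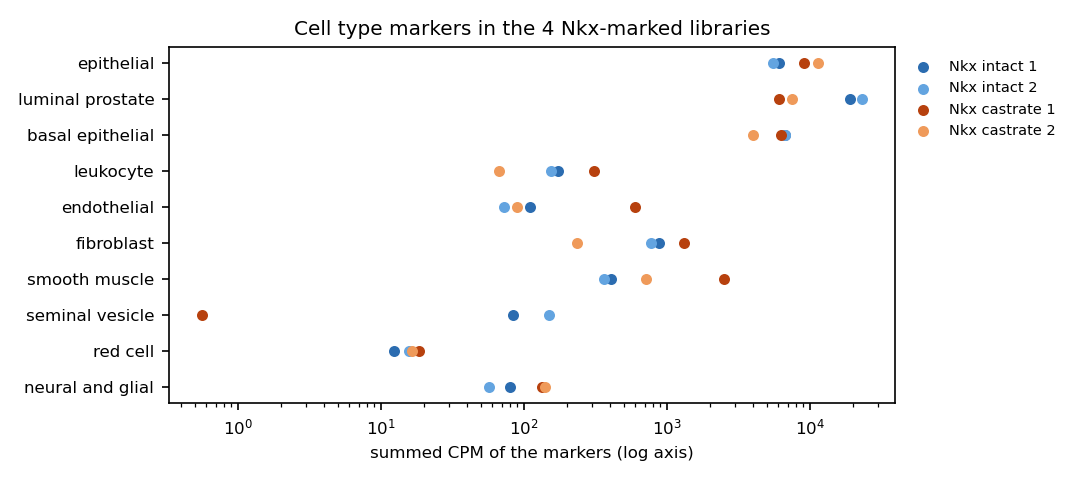
Summed CPM (log axis) of each list of cell type markers in the 4 Nkx-marked libraries, 1 point per library. The seminal vesicle sum of castrate 2 is 0 and is not drawn. Luminal sums are lower and smooth muscle sums higher in both castrate libraries, and castrate 1 has the highest fibroblast, endothelial and leukocyte sums.

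Of 13846 genes tested, 556 (4.02%) rose and 636 (4.59%) fell after castration at an adjusted p under 0.05 (edgeR's quasi-likelihood test, Benjamini-Hochberg over all genes), 8.61% in all. Log2 fold changes are positive where castrate is higher and carry the SE of the model, a fold without log2 is the same fitted value on the linear scale, and the median log2 fold change over all tested genes was 0.05. Rose and fell are used only of genes that passed that test. List counts below are to be read beside the shares of all genes that rose (4.02%) and fell (4.59%). Called genes that fell made up 13.0% of the CPM in intact and 3.71% in castrate, and those that rose 3.95% and 11.03%. In 49.9% of all tested genes the Nkx libraries of the groups did not overlap, so a gap between groups of 2 is common and is given only beside a test. Counts of called genes depended on single libraries, with 101 higher and 185 lower without intact 1, 72 and 137 without intact 2, 1089 and 1323 without castrate 1, and 1220 and 1164 without castrate 2. They were 345 and 425 without Clu 1 and 338 and 410 without Clu 2. Of the called genes, 165 (1.19% of those tested) kept their call and direction when each Nkx library was left out in turn, 54 that rose and 111 that fell. The castrate libraries differed from each other more than the other pairs did. The correlation of log2 CPM was 0.920 in Nkx castrate, 0.956 in Nkx intact and 0.970 in Clu intact. A fit without a castrate library leaves that difference out of the spread, so a call kept or gained in it is a weaker check. Values are CPM of intact 1 and 2, then of castrate 1 and 2. Unless an overlap or a lost call is stated, both castrate libraries of a called gene lay on the same side of both intact ones.

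Most protein-folding genes of the ER fell. Of 41 tested chaperones, disulphide isomerases and their partners, 26 fell and 1 rose, against 4.59% and 4.02% of all genes, and their median log2 fold change was -1.30 against 0.05. Agr2, a disulphide isomerase of mucus- and fluid-secreting epithelia, fell from 232 and 297 to 26.0 and 16.3 CPM (log2 fold change -3.64, SE 0.27, adjusted p = 0.000677). Dnajc10, a reductase that unpicks wrong disulphide bonds, fell from 1818 and 1815 to 222 and 372 CPM (6.12-fold, adjusted p = 0.00221), and Hyou1, a large chaperone and exchange factor of the ER lumen, fell from 870.1 and 1155 to 215 and 213 CPM (4.73-fold, adjusted p = 0.00221). Calr, the lectin chaperone calreticulin, fell 3.92-fold, Pdia6 3.83-fold and Fkbp11, a prolyl isomerase, 5.55-fold (adjusted p = 0.00241, 0.00249 and 0.00297). Hspa5, the main Hsp70 chaperone of the ER and the list member with the highest mean CPM, fell from 2976 and 3971 to 1729 and 1087 CPM (log2 fold change -1.30, SE 0.31, adjusted p = 0.0431). Hspa5 lost its call (adjusted p = 0.0614 with only the 4 Nkx libraries and 0.1254 and 0.281 without intact 1 and 2). The gene that rose was Qsox1, a sulphydryl oxidase of the Golgi and secreted fluid that makes disulphide bonds, which rose from 33.8 and 29.7 to 203 and 223 CPM (log2 fold change 2.75, SE 0.18, adjusted p = 0.000439). Both castrate libraries lay apart from both intact ones for each of these genes. Dnajc10, Hyou1, Calr, Pdia6 and Fkbp11 were chosen after their values were seen. Chaperones that fell numbered 15 without intact 1 and 10 without intact 2.

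Many ER chaperone genes are known targets of the transcription factors ATF6 and XBP1 through the ER stress element, CCAAT followed 9 bases later by CCACG. RefSeq promoter windows on GRCm38.p6, 250 bases before to 50 after the start, were searched on both strands for these letters. The windows of 37 of 27025 genes (0.137%) held the element. Among tested genes with a window it was in 9 of 506 that fell (1.78%), 0 of 405 that rose and 10 of 9776 that were not called (0.102%). Of the 37 ER chaperones with a window, 8 held it (21.6%), 7 of which fell. The other genes with it that fell, Derl3 and Syvn1, belong to the list of ER-associated degradation. The share among genes that fell is therefore not separate from the falls of these lists. Stretches from 6 genes that fell and from Canx, the chaperone with the element that was not called, are shown so that the element can be compared between them. Each reads 5′ to 3′ on the strand of its gene, with the element in capitals, CCAAT first where it lies in the direction of the gene and CGTGG first where it lies opposite:
Hspa5, chr2:34771995-34772073, + strand: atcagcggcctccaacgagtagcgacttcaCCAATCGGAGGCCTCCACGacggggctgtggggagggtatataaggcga
Pdia6, chr12:17266461-17266539, + strand: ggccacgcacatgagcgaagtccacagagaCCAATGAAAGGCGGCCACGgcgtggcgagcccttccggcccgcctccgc
Dnajc3, chr14:118937797-118937875, + strand: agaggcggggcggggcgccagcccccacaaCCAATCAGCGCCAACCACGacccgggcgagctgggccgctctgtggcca
Calr, chr8:84847045-84847123, - strand: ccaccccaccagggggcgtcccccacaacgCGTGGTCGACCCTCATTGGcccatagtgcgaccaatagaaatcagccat
Derl3, chr10:75893212-75893290, + strand: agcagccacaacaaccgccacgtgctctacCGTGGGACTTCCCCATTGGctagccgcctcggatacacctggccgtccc
Creld2, chr15:88819490-88819568, + strand: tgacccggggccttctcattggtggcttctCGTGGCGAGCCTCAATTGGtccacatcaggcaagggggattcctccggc
Canx, chr11:50325770-50325848, - strand: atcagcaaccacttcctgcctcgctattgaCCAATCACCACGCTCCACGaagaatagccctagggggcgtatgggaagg

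The letters between the CCAAT and CCACG blocks differed between all 7 stretches, and the element ran with the gene in Hspa5, Pdia6, Dnajc3 and Canx and against it in Calr, Derl3 and Creld2. Log2 fold changes were -3.89 (SE 0.40) for Derl3, -3.51 (SE 0.29) for Creld2, -1.97 (SE 0.22) for Calr, -1.94 (SE 0.23) for Dnajc3 and -1.94 (SE 0.22) for Pdia6. For Canx, calnexin, levels were 681 and 866 CPM in intact and 381 and 579.8 CPM in castrate (log2 fold change -0.69, adjusted p = 0.15). Canx passed without the filter on low counts (adjusted p = 0.0198), with the replicate number as a block (adjusted p = 0.0354) and without castrate 2 (adjusted p = 0.00597). Creld2 and Alg12, a mannosyltransferase of N-glycan assembly, start from one divergent window and share the printed element. Alg12 stood at 9.37 and 24.5 CPM in intact and 8.47 and 8.43 CPM in castrate (adjusted p = 0.24) and did not pass the test. The androgen response element in its full palindromic form, AGAACA and TGTTCT 3 bases apart, was in 3 windows of 27025 (0.0111%). It was in 0 of 506 genes that fell and 0 of 405 that rose. An element this rare would mostly be absent from sets of that size, so the 0 shows nothing about androgen. A match shows letters only, in windows of this length.

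**Figure D2:**
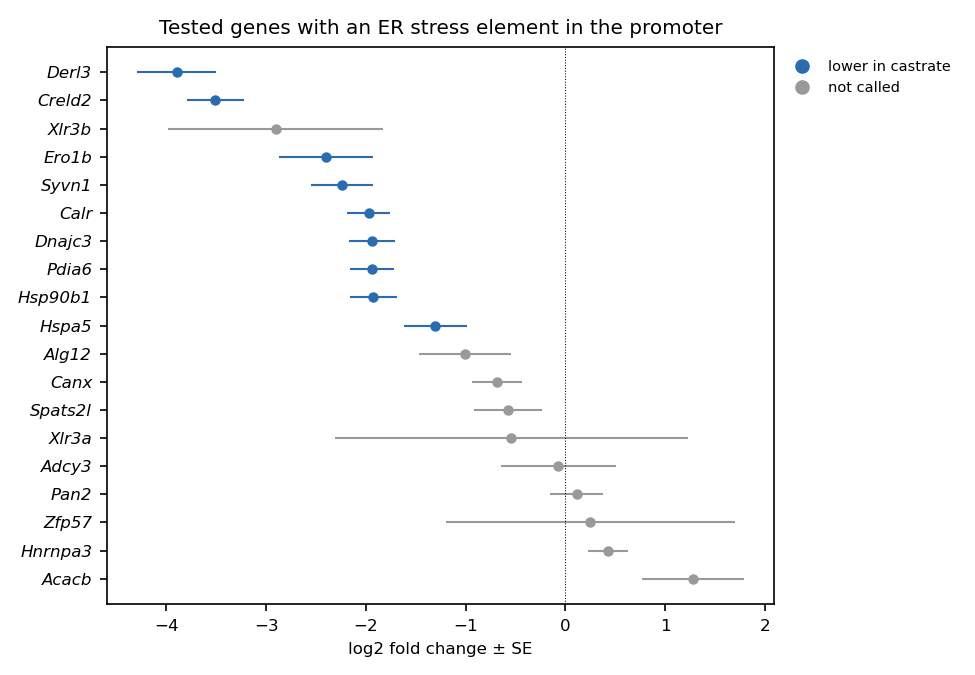
Log2 fold change (± SE) of the 19 tested genes whose promoter window holds the ER stress element, blue where the gene fell and grey where it was not called. The 9 called genes all lie between -3.89 (Derl3) and -1.30 (Hspa5).

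Genes of the steps before and after folding fell too, with list medians nearer 0. In the translocon, signal recognition and signal peptidase list all 25 tested genes had a log2 fold change below 0, against 47.0% of all genes, and 8 of 25 fell and 0 rose (median log2 fold change -0.77). Ssr4, a subunit of the translocon-associated complex, fell from 185 and 210.1 to 53.5 and 72.9 CPM (3.13-fold, adjusted p = 0.00445), and Sec11c, a catalytic subunit of signal peptidase, from 195 and 225 to 71.8 and 87.2 CPM (2.64-fold, adjusted p = 0.00426). Ssr4 lost its call (adjusted p = 0.0634 without intact 2), as did Sec11c (adjusted p = 0.0637 without intact 2). For attachment and trimming of N-glycans 7 of 31 fell and 0 rose (median log2 fold change -0.71). Uggt1, the sensor that tags misfolded glycoproteins for another round of folding, fell from 399 and 462 to 141 and 129 CPM (log2 fold change -1.67, SE 0.18, adjusted p = 0.00223). For ER-associated degradation, which returns failed proteins to the cytosol, 9 of 25 fell and 0 rose (median log2 fold change -0.66). Derl3, a channel protein of that route, fell from 93.0 and 108 to 9.26 and 4.14 CPM (log2 fold change -3.89, SE 0.40, adjusted p = 0.00195), and Syvn1, its ubiquitin ligase, from 241 and 374 to 68.4 and 61.7 CPM (4.72-fold, adjusted p = 0.00597). Syvn1 lost its call (adjusted p = 0.0639 without intact 2). Derl3 had a log2 fold change of -4.60 without castrate 1. Translocon genes that fell numbered 3 without intact 1, 0 without intact 2 and 16 without castrate 2. N-glycan genes that fell numbered 1 without either intact library, 15 without castrate 2 and 2 without either Clu library. Degradation genes that fell numbered 5 without intact 1, 1 without intact 2 and 14 without castrate 2.

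Vesicle transport out of the ER also held genes that fell. Among COPI and COPII coat and cargo genes 14 of 50 fell and 0 rose (median log2 fold change -0.66). Tmed3, a cargo receptor of these vesicles, fell from 297 and 375 to 56.9 and 73.6 CPM (log2 fold change -2.36, SE 0.21, adjusted p = 0.00112), and Sec24d, a cargo-selecting coat subunit, fell from 154 and 164 to 58.3 and 57.4 CPM (log2 fold change -1.46, SE 0.16, adjusted p = 0.00242). Golgi enzymes that build glycans were mixed: 10 of 85 fell and 5 rose (median log2 fold change -0.29). Man2a1, which trims mannose from N-glycans in the Golgi, fell from 581 and 639 to 94.8 and 137 CPM (5.28-fold, adjusted p = 0.00132), and B3gnt7, which extends keratan sulphate and related chains, from 51.3 and 62.7 to 1.12 and 3.25 CPM (26.5-fold, adjusted p = 0.00242). B3gnt7 had a log2 fold change of -4.13 without castrate 1 and -5.66 without castrate 2. Of 60 exocytosis genes 3 fell and 1 rose, near the shares of all genes. Rab3d, a GTPase of secretory granules, was among those that fell, from 131 and 158 to 39.3 and 34.7 CPM (log2 fold change -1.96, SE 0.19, adjusted p = 0.00139). Bhlha15, the transcription factor MIST1 that sets up the secretory apparatus of exocrine cells and is known to act on Rab3d, fell from 74.2 and 121 to 17.4 and 17.3 CPM (log2 fold change -2.50, SE 0.27, adjusted p = 0.00241) and was chosen after its values were seen. Coat and cargo genes that fell numbered 4 without intact 1, 2 without intact 2, 34 without castrate 2 and 9 without either Clu library. Golgi enzymes that fell and rose numbered 5 and 0 without intact 1, 4 and 0 without intact 2, 21 and 6 without castrate 1, 14 and 8 without castrate 2 and 8 and 2 without either Clu library. Exocytosis genes that fell and rose numbered 1 and 1 without either intact or either Clu library, 7 and 5 without castrate 1 and 6 and 3 without castrate 2.

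Xbp1, Atf4 and Atf6, transcription factors of the unfolded protein response, did not pass the test at the RNA level. In that list 1 of 21 fell and 1 rose (median log2 fold change -0.26). Xbp1 stood at 143 and 198 CPM in intact and 183 and 181 CPM in castrate with overlapping groups (log2 fold change 0.09, SE 0.19), Atf4 at 689.8 and 760.0 CPM in intact and 646 and 649 CPM in castrate (-0.16, SE 0.16) and Atf6 at 307 and 309 CPM in intact and 153 and 219.6 CPM in castrate (-0.72, SE 0.20). None of the 3, chosen after their values were seen, passed the test (adjusted p = 0.834, 0.609 and 0.0731), and splicing of Xbp1 RNA or cleavage of ATF6 protein is not seen in gene counts. The members called were Chac1, a glutathione-degrading enzyme induced by ATF4, which fell from 24.4 and 41.2 to 7.86 and 4.88 CPM (5.12-fold, adjusted p = 0.0107), and Nupr1, a small chromatin protein induced by many stresses, which rose from 7.17 and 8.99 to 255 and 237 CPM (log2 fold change 4.93, SE 0.22, adjusted p = 0.000111). Chac1 lost its call (adjusted p = 0.103 without intact 2). Atf6 passed without the filter on low counts (adjusted p = 0.00974), in DESeq2 (adjusted p = 0.0143) and without castrate 2 (adjusted p = 0.00246). Unfolded protein response genes that fell and rose numbered 0 and 1 without intact 2, 2 and 2 without castrate 1 and 5 and 2 without castrate 2.

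**Figure D3:**
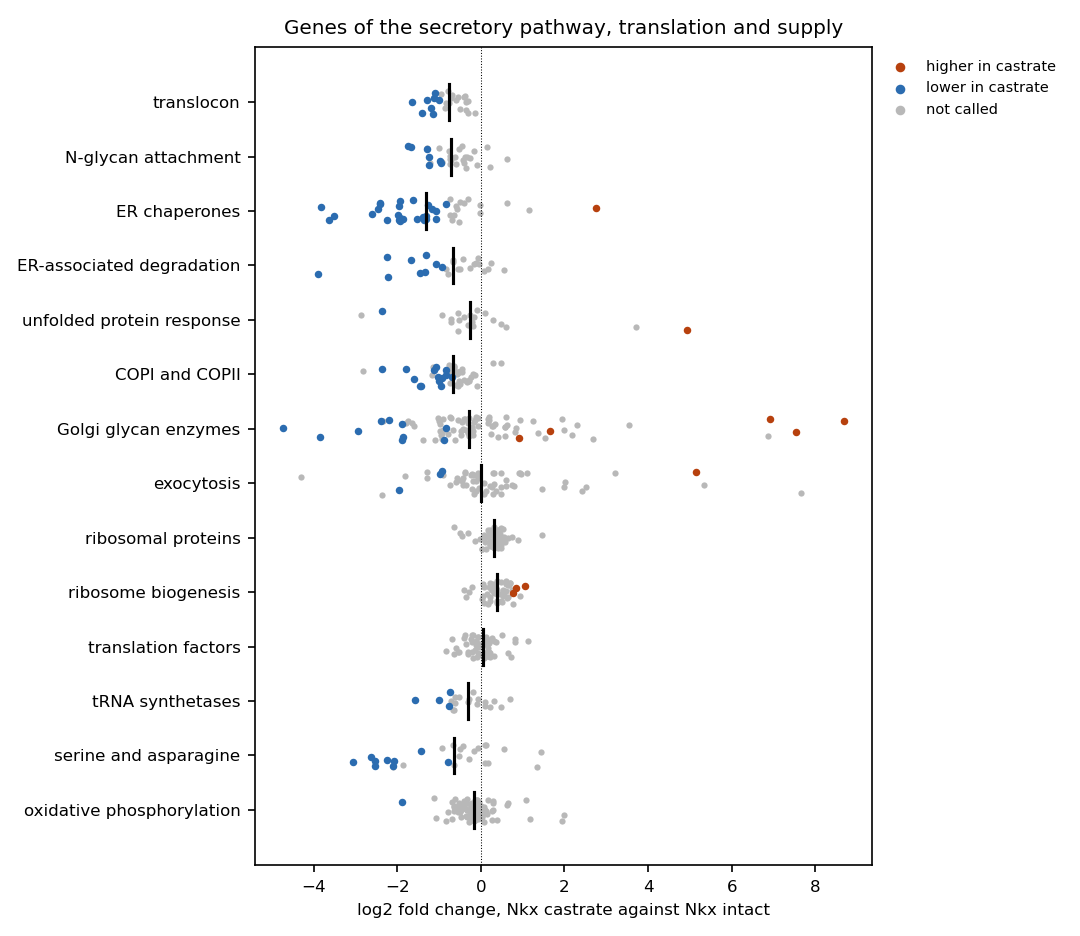
Log2 fold change of every tested member of 14 lists, 1 point per gene, with a black bar at the list's median. Points are coloured where the gene was called. The medians of the ER and coat lists lie left of 0, from -1.30 to -0.66, and ribosomal proteins and translation factors have no called gene.

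The translation apparatus gave few calls. Of 61 ribosomal protein genes 0 passed the test in either direction (median log2 fold change 0.32), by edgeR's quasi-likelihood test. At an unadjusted p under 0.05 the count was 4, DESeq2 called 2 and limma-voom 0. Of 62 translation factors 0 were called (9 at an unadjusted p under 0.05, 5 in DESeq2, 0 in limma-voom), and of 52 ribosome biogenesis genes 3 rose, with median 0.39. Log2 fold changes were above 0 in 55 of 61 ribosomal protein genes, 48 of 52 biogenesis genes and 35 of 62 translation factors. Of all genes 47.0% lay below 0. The medians depended on single libraries: without castrate 1 the median of the ribosomal proteins was 0.56 and without castrate 2 it was 0.02. Ribosomal protein genes that fell and rose numbered 3 and 34 without castrate 1. Biogenesis genes that fell and rose numbered 0 and 0 without either intact or either Clu library, 0 and 15 without castrate 1 and 0 and 6 without castrate 2. Translation factors that fell and rose numbered 2 and 7 without castrate 1 and 4 and 1 without castrate 2. Of 21 cytosolic tRNA synthetases 4 fell and 0 rose, led by Gars, the glycyl-tRNA synthetase, from 313 and 296 to 101 and 104 CPM (log2 fold change -1.56, SE 0.16, adjusted p = 0.00195). Synthetases that fell numbered 1 without either intact or either Clu library and 7 without castrate 2.

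Part of the list for synthesis of serine and asparagine and for amino acid uptake fell. In it 9 of 27 fell and 0 rose (median log2 fold change -0.65). Phgdh, the first enzyme of serine synthesis, fell from 129.5 and 157 to 24.0 and 36.7 CPM (log2 fold change -2.24, SE 0.25, adjusted p = 0.00269). Asns, asparagine synthetase, fell from 81.0 and 114 to 23.4 and 22.03 CPM (log2 fold change -2.10, SE 0.25, adjusted p = 0.00314), and Gpt2, the mitochondrial alanine transaminase, from 311 and 412 to 54.4 and 70.5 CPM (5.79-fold, adjusted p = 0.00154). The mitochondrial one-carbon genes Mthfd2 and Aldh1l2 fell 5.77-fold and 19.5-fold, from 54.2 and 83.3 to 14.5 and 9.24 CPM and from 30.6 and 30.8 to 1.85 and 1.26 CPM (adjusted p = 0.00385 and 0.000999). Asns, Phgdh, Mthfd2, Aldh1l2 and Chac1 are textbook targets of the transcription factor ATF4, whose own RNA was not called. Trib3, another such target, was chosen after its values were seen. It stood at 18.3 and 18.0 CPM in intact and 18.0 and 15.8 CPM in castrate with overlapping groups (adjusted p = 0.91). These genes are only part of the targets of ATF4, and its targets as a set were not tested. The stress-linked genes Nupr1, Gdf15 and Stc2, which ATF4 can also induce, rose. The named genes therefore give no common direction for ATF4 targets. List members that fell and rose numbered 4 and 0 without intact 2 and 13 and 2 without castrate 1.

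**Figure D4:**
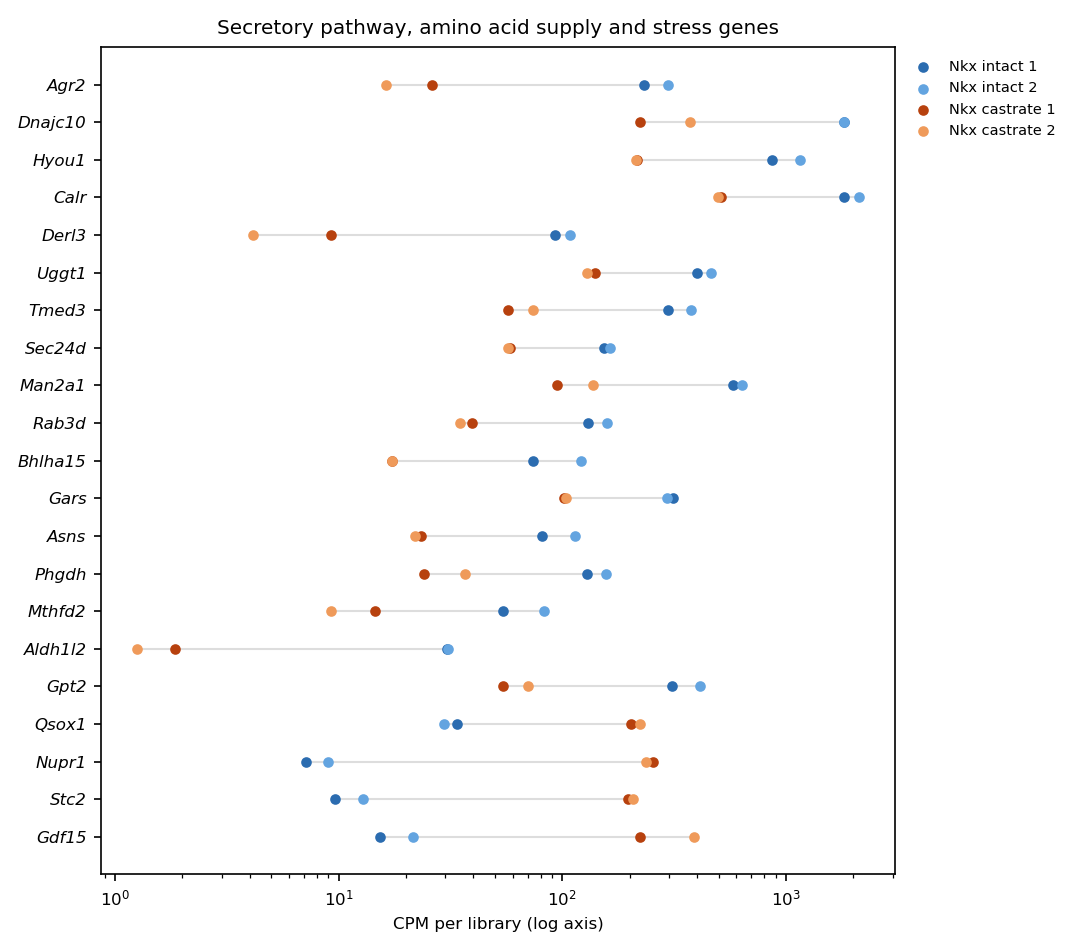
CPM in each Nkx-marked library (log axis) of genes of the secretory pathway and amino acid supply and of 4 genes that rose (Qsox1, Nupr1, Stc2 and Gdf15). Intact and castrate libraries do not overlap for any of the 21 genes.

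Central energy metabolism gave few calls. Of 90 nuclear genes of oxidative phosphorylation 1 was called, Ndufa1, a small complex I subunit, which fell from 51.5 and 63.8 to 13.2 and 18.0 CPM (3.69-fold, adjusted p = 0.00539). Among 12 mitochondrial mRNAs 0 were called (0 at an unadjusted p under 0.05, 0 in DESeq2 and 0 in limma-voom). In glycolysis 1 of 25 fell and 1 rose (median log2 fold change 0.10). In fatty acid synthesis and activation 3 of 31 fell and 1 rose (median log2 fold change -0.09). Acsl1, which activates fatty acids with coenzyme A, fell from 53.7 and 66.3 to 21.0 and 14.05 CPM (3.41-fold, adjusted p = 0.0063). Polyamines are abundant in prostatic fluid, and 2 of 18 genes of their metabolism were called. Odc1, the rate-limiting enzyme of synthesis, fell from 293 and 346 to 114 and 68.4 CPM (3.49-fold, adjusted p = 0.00619), and Azin1, the antizyme inhibitor that protects it from degradation, rose from 193 and 223 to 481 and 717 CPM (2.88-fold, adjusted p = 0.00674). Ndufa1 lost its call (adjusted p = 0.0668 without intact 2), as did Acsl1 (adjusted p = 0.0739 without intact 2), Odc1 (adjusted p = 0.0743 without intact 2) and Azin1 (adjusted p = 0.0943 and 0.0845 without intact 1 and 2). Polyamine genes that fell and rose numbered 1 and 0 without intact 1, 0 and 0 without intact 2, 1 and 3 without castrate 1 and 2 and 1 without castrate 2. Fatty acid genes that fell and rose numbered 1 and 0 without intact 1, 0 and 0 without intact 2, 3 and 3 without castrate 1 and 4 and 2 without castrate 2, with a median of 0.03 without intact 1 and 0.07 without castrate 1. Glycolysis genes that fell and rose numbered 0 and 0 without either intact library, 3 and 2 without castrate 1, 1 and 7 without castrate 2 and 1 and 0 without either Clu library, with a median of -0.18 without castrate 1. Oxidative phosphorylation genes that fell and rose numbered 0 and 0 without intact 2, 1 and 2 without castrate 1 and 15 and 0 without castrate 2.

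Called zinc and metallothionein genes fell, and genes of other ion transport changed in both directions. Prostatic fluid is rich in zinc and citrate, and its salt and water are set by pumps and channels of the luminal cell. Of 24 zinc transporters and metallothioneins 3 fell and 0 rose. Mt3, a metallothionein, went from 15.7 and 17.7 to 0 and 0 CPM, at least 174-fold lower if 3 counts are taken for the castrate group (adjusted p = 0.00223). Mt1, the abundant metallothionein, stood at 841 and 910.1 CPM in intact and 455.9 and 433 CPM in castrate and did not pass (adjusted p = 0.0593). Atp1b1, the beta chain of the sodium pump, fell from 798 and 732 to 118 and 205 CPM (log2 fold change -2.25, SE 0.27, adjusted p = 0.00347). Slc9a2, a sodium-proton exchanger, fell from 126 and 108 to 27.3 and 32.4 CPM (3.93-fold, adjusted p = 0.00195). Slc12a2, the sodium-potassium-chloride cotransporter NKCC1 that loads secretory cells with chloride, rose from 127 and 108 to 821 and 1883 CPM (11.5-fold, adjusted p = 0.00241). Slc12a2 lost its call (adjusted p = 0.0562 without intact 2). Slc12a2 had a log2 fold change of 2.80 without castrate 2. Across sodium, chloride and water transport 6 of 81 fell and 8 rose (median log2 fold change 0.14), against 4.59% and 4.02% of all genes. Among the other solute carriers 18 of 167 fell and 12 rose (median log2 fold change -0.21). Slc7a8, a neutral amino acid exchanger, fell 4.33-fold, and Slc35b4, a Golgi carrier of nucleotide sugars, 4.599-fold (adjusted p = 0.00305 and 0.00378). Zinc genes that fell and rose numbered 6 and 0 without castrate 1 and 7 and 0 without castrate 2. Mt1 passed without the filter on low counts (adjusted p = 0.000182), in DESeq2 (adjusted p = 0.00376), with only the 4 Nkx libraries (adjusted p = 0.0402), with the replicate number as a block (adjusted p = 0.0342), without castrate 1 (adjusted p = 0.0196), without castrate 2 (adjusted p = 0.0337), without Clu 1 (adjusted p = 0.0325) and without Clu 2 (adjusted p = 0.0335). Salt and water genes that fell and rose numbered 2 and 3 without intact 1, 4 and 1 without intact 2, 12 and 10 without castrate 1 and 11 and 15 without castrate 2, with a median of -0.16 without castrate 1. Other carriers that fell and rose numbered 6 and 3 without intact 1, 7 and 2 without intact 2 and 29 and 17 without castrate 2.

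Several junction and cytoskeleton genes of polarised epithelium rose. For tight junctions 2 of 32 fell and 4 rose (median log2 fold change 0.30), against 4.59% and 4.02% of all genes. For desmosomes and adherens junctions 2 of 35 fell and 6 rose (median log2 fold change 0.20). For keratins 0 of 21 fell and 5 rose (median log2 fold change 0.73). For actin, myosin and tubulin genes 0 of 62 fell and 4 rose (median log2 fold change 0.27). Cgn, cingulin, which ties tight junctions to the actin belt, rose from 158 and 129 to 465 and 473 CPM (log2 fold change 1.71, SE 0.18, adjusted p = 0.00212). Its paralogue Cgnl1 rose from 62.7 and 69.0 to 190.4 and 252 CPM (log2 fold change 1.75, SE 0.19, adjusted p = 0.00245). Myh14, a non-muscle myosin heavy chain of epithelial junctions, rose from 98.2 and 91.1 to 422 and 519 CPM (log2 fold change 2.31, SE 0.18, adjusted p = 0.000804). The simple-epithelial keratin Krt23 rose from 40.1 and 29.2 to 121 and 120.1 CPM (3.48-fold, adjusted p = 0.00321), and Krt8, of luminal cells, from 792 and 705 to 2179.5 and 2558 CPM (3.17-fold, adjusted p = 0.00351). Krt8 lost its call (adjusted p = 0.0502 and 0.0739 without intact 1 and 2). Dsp, desmoplakin, had the highest mean CPM in its list. Dsp stood at 1734 and 1911 CPM in intact and 1949 and 2103 CPM in castrate and did not pass (adjusted p = 0.67). Smooth muscle markers summed to 406 and 364 CPM in intact and 2498 and 717 CPM in castrate, and 7 of 15 rose. The part of smooth muscle RNA in the actin, myosin and tubulin counts was not tested. Actin, myosin and tubulin genes that fell and rose numbered 0 and 1 without either intact library, 5 and 7 without castrate 1, 0 and 13 without castrate 2 and 0 and 2 without either Clu library. Tight junction genes that fell and rose numbered 0 and 2 without either intact library, 3 and 8 without castrate 1, 3 and 7 without castrate 2 and 0 and 3 without either Clu library. Desmosome and adherens genes that fell and rose numbered 0 and 1 without either intact library and 6 and 8 without castrate 1. Keratins that fell and rose numbered 0 and 1 without intact 1, 0 and 2 without intact 2 and 5 and 6 without castrate 1. Their median was 0.39 without castrate 1 and 0.12 without intact 2.

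Several genes of the basement membrane and matrix fell. For integrins, laminins and their partners 7 of 50 fell and 2 rose (median log2 fold change -0.11), against 4.59% and 4.02% of all genes. For collagens 5 of 37 fell and 0 rose (median log2 fold change -0.34). Col4a6, a chain of epithelial basement membrane collagen, fell from 255 and 306 to 24.3 and 11.7 CPM (log2 fold change -3.95, SE 0.44, adjusted p = 0.00242), and Agrn, the basement membrane proteoglycan agrin, from 448 and 380.3 to 151 and 108 CPM (3.19-fold, adjusted p = 0.00434). Agrn lost its call (adjusted p = 0.0502 without intact 1). Col4a6 had a log2 fold change of -4.58 without castrate 1. The collagen median was -2.07 without castrate 1 and 0.39 without castrate 2, and the fibroblast markers summed to 1317 and 235.1 CPM in those libraries. The part of stromal RNA in the collagen counts was not tested, nor was that of basal cells in the falls of basement membrane genes, where 4 of 20 fell and 0 rose among basal markers. Among semaphorins, plexins and ephrins, guidance molecules at cell contacts, 1 of 57 fell and 8 rose (median log2 fold change 0.59), and their median was -0.16 without castrate 1. Efnb2, ephrin-B2, rose from 118 and 119 to 320.0 and 467 CPM (3.31-fold, adjusted p = 0.00381), and Sema6a from 38.1 and 33.6 to 108 and 107 CPM (3.01-fold, adjusted p = 0.00647). Efnb2 lost its call (adjusted p = 0.0569 and 0.0711 without intact 1 and 2), as did Sema6a (adjusted p = 0.0637 and 0.0975 without intact 1 and 2). Integrin and laminin genes that fell and rose numbered 0 and 0 without intact 1, 1 and 0 without intact 2, 19 and 2 without castrate 1, 7 and 8 without castrate 2 and 4 and 1 without either Clu library, with a median of 0.08 without intact 2 and 0.26 without castrate 2. Collagens that fell and rose numbered 2 and 0 without intact 1, 1 and 0 without intact 2, 23 and 0 without castrate 1, 8 and 6 without castrate 2 and 3 and 0 without either Clu library. Guidance genes that fell and rose numbered 0 and 1 without intact 1, 0 and 0 without intact 2, 10 and 8 without castrate 1, 2 and 19 without castrate 2 and 0 and 5 without either Clu library.

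Single growth factors and receptors changed within several families. Egf, a growth factor known to be androgen-dependent in rodent prostate, fell from 1150.2 and 918 to 34.9 and 16.3 CPM (log2 fold change -5.33, SE 0.49, adjusted p = 0.00132), and its receptor Egfr from 149.9 and 145 to 82.8 and 70.2 CPM (1.93-fold, adjusted p = 0.0156). Egfr lost its call (adjusted p = 0.115 and 0.126 without intact 1 and 2). Egf had a log2 fold change of -5.99 without castrate 1. In that family 4 of 24 fell and 2 rose (median log2 fold change -0.33), against 4.59% and 4.02% of all genes. Of 16 FGF genes 0 were called (3 at an unadjusted p under 0.05, 2 in DESeq2 and 1 in limma-voom). In the hedgehog and Hippo list 4 of 30 fell and 3 rose (median log2 fold change -0.03). Shh, the hedgehog ligand through which prostate epithelium signals to stroma, fell from 49.5 and 42.4 to 9.43 and 10.1 CPM (log2 fold change -2.24, SE 0.26, adjusted p = 0.00286). Bmp7, a bone morphogenetic protein, fell from 126 and 131 to 33.3 and 35.3 CPM (log2 fold change -1.91, SE 0.18, adjusted p = 0.00132), and Bmpr1b, a receptor for such ligands, from 76.9 and 69.4 to 14.8 and 11.2 CPM (log2 fold change -2.49, SE 0.22, adjusted p = 0.00112). Gdf15, also of the TGF-beta and BMP list, a stress-induced secreted factor, rose from 15.3 and 21.4 to 223 and 387 CPM (log2 fold change 4.05, SE 0.34, adjusted p = 0.000966), and in that list 4 of 59 fell and 7 rose (median log2 fold change 0.15). In the NOTCH list 2 of 28 fell and 5 rose (median log2 fold change 0.28). The receptor Notch3 rose from 12.2 and 7.90 to 51.7 and 77.3 CPM (log2 fold change 2.68, SE 0.31, adjusted p = 0.00285), Dtx4, a ubiquitin ligase of the pathway, from 22.9 and 18.0 to 97.6 and 157 CPM (6.24-fold, adjusted p = 0.00195), and the target Heyl from 4.30 and 2.37 to 17.3 and 25.5 CPM (6.39-fold, adjusted p = 0.0162). Heyl lost its call (adjusted p = 0.0655 and 0.136 without intact 1 and 2). Notch3 and Heyl are also known in smooth muscle, whose markers summed to 2498 CPM in castrate 1 and 717 CPM in castrate 2. The part of smooth muscle RNA in both genes' values was not tested. FGF genes that fell and rose numbered 1 and 0 without castrate 1 and 1 and 2 without castrate 2. Hedgehog and Hippo genes that fell and rose numbered 1 and 1 without intact 1, 2 and 0 without intact 2, 7 and 3 without castrate 1, 4 and 5 without castrate 2 and 4 and 1 without either Clu library, with a median of 0.04 without intact 1. EGF genes that fell and rose numbered 1 and 0 without intact 1, 2 and 1 without intact 2, 6 and 5 without castrate 1 and 4 and 1 without either Clu library. TGF-beta and BMP genes that fell and rose numbered 2 and 3 without intact 1, 2 and 2 without intact 2, 13 and 6 without castrate 1 and 4 and 15 without castrate 2, with a median of -0.18 without castrate 1. NOTCH genes that fell and rose numbered 0 and 2 without either intact library, with a median of -0.22 without castrate 1.

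**Figure D5:**
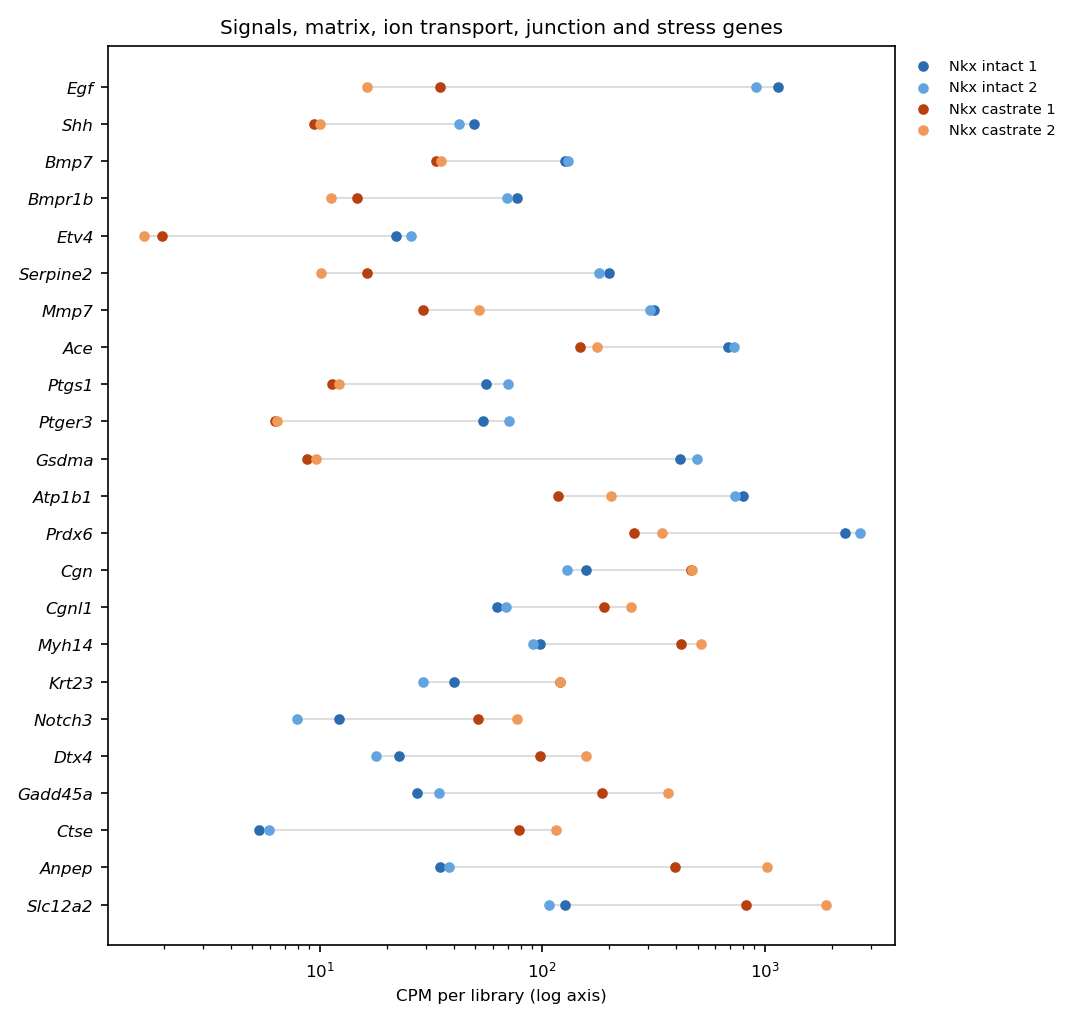
CPM in each Nkx-marked library (log axis) for genes of signalling, matrix, ion transport, junctions and stress. The 13 genes from Egf to Prdx6 are lower and the 10 from Cgn to Slc12a2 higher in both castrate libraries than in both intact ones.

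Single transcription factors of the ETS, SOX and homeobox families were called. In the ETS, IRF and STAT list 4 of 36 fell and 2 rose (median log2 fold change 0.28), in the SOX, FOX and GATA list 1 of 39 fell and 2 rose (median log2 fold change 0.16) and in the homeobox list 1 of 57 fell and 4 rose (median log2 fold change 0.19), against 4.59% and 4.02% of all genes. Etv4, an ETS factor of branching epithelia, fell from 22 and 25.7 to 1.96 and 1.63 CPM (log2 fold change -3.72, SE 0.41, adjusted p = 0.00241). Spdef and Elf5, ETS factors of secretory epithelia, fell 3.39-fold and 9.98-fold (adjusted p = 0.0148 and 0.0116). Spdef lost its call (adjusted p = 0.104 and 0.0984 without intact 1 and 2), as did Elf5 (adjusted p = 0.102 without intact 2). Elf5 had a log2 fold change of -3.97 without castrate 2. Msx2, a homeobox factor of BMP signalling, rose from 2.39 and 5.93 to 32.0 and 49.0 CPM (log2 fold change 3.28, SE 0.46, adjusted p = 0.00622), and Sox9, a factor of epithelial progenitors, from 361 and 289 to 794 and 1347 CPM (3.29-fold, adjusted p = 0.00875). Sox9 lost its call (adjusted p = 0.0728 and 0.132 without intact 1 and 2). Msx2 had a log2 fold change of 4.07 without intact 2. ETS, IRF and STAT genes that fell and rose numbered 2 and 0 without intact 1, 1 and 0 without intact 2, 6 and 6 without castrate 1 and 4 and 6 without castrate 2. Homeobox genes that fell and rose numbered 1 and 1 without intact 1, 0 and 1 without intact 2, 5 and 5 without castrate 1 and 3 and 8 without castrate 2, with a median of -0.11 without castrate 1. SOX, FOX and GATA genes that fell and rose numbered 0 and 0 without either intact library, 2 and 4 without castrate 1 and 3 and 7 without castrate 2, with a median of -0.10 without castrate 1.

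Of the nuclear receptors and their partners 4 of 40 fell and 8 rose (median log2 fold change 0.03). Fkbp5, a co-chaperone gene known to be switched on by androgen, fell from 193 and 143 to 33.6 and 19.3 CPM (log2 fold change -2.66, SE 0.36, adjusted p = 0.00552). Thra, a thyroid hormone receptor, rose from 62.0 and 54.5 to 156 and 157 CPM (2.68-fold, adjusted p = 0.00685), and Rara, a retinoic acid receptor, from 59.8 and 31.4 to 186 and 212 CPM (4.36-fold, adjusted p = 0.00695). Fkbp5 lost its call (adjusted p = 0.0514 without intact 1), as did Thra (adjusted p = 0.0655 and 0.103 without intact 1 and 2) and Rara (adjusted p = 0.0567 without intact 2). In the clock list 1 of 24 fell and 2 rose (median log2 fold change 0.18). The circadian output gene Dbp and the clock repressor Nr1d1 rose 3.41-fold and 3.19-fold (adjusted p = 0.0206 and 0.0178), and Npas2, an activator of the clock, fell from 49.8 and 43.1 to 12.5 and 14.8 CPM (log2 fold change -1.77, SE 0.22, adjusted p = 0.00385). Dbp lost its call (adjusted p = 0.0908 and 0.186 without intact 1 and 2), as did Nr1d1 (adjusted p = 0.123 without intact 2). Circadian genes that fell and rose numbered 1 and 1 without intact 1, 1 and 0 without intact 2, 1 and 4 without castrate 1 and 1 and 5 without castrate 2, with a median of -0.05 without castrate 1. The hour of tissue collection is not in the labels, and a difference in hour cannot be told apart from castration here. Nuclear receptor genes that fell and rose numbered 0 and 2 without intact 1, 0 and 1 without intact 2 and 2 and 6 without either Clu library, with a median of -0.01 without intact 2 and -0.04 without castrate 1.

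Genes for mucosal defence changed in both directions. In the mucosal defence list 8 of 40 fell and 5 rose (median log2 fold change -0.53), against 4.59% and 4.02% of all genes. Gsdma, a pore-forming gasdermin with close copies whose reads may be shared, fell from 416 and 497 to 8.81 and 9.61 CPM (log2 fold change -5.63, SE 0.28, adjusted p = 0.000136). Defb50, a beta-defensin, fell from 276 and 259.8 to 9.88 and 18.8 CPM (log2 fold change -4.23, SE 0.42, adjusted p = 0.00186), and Gsdmc2, which also has close copies, rose from 2.30 and 2.96 to 11.6 and 11.3 CPM (4.35-fold, adjusted p = 0.00236). The seminal vesicle markers summed to 0.561 CPM in castrate 1 and 0 in castrate 2, and their part in these falls was not tested. Of 82 interleukin and chemokine genes 6 rose and 5 fell, with a median of -0.64 without castrate 1 and 0.64 without castrate 2, while leukocyte markers summed to 311 and 66.8 CPM there. In the list of prostaglandin and other eicosanoid genes 3 of 33 fell and 2 rose (median log2 fold change 0.27). Ptgs1, cyclooxygenase 1, fell from 56.2 and 70.1 to 11.4 and 12.2 CPM (log2 fold change -2.42, SE 0.21, adjusted p = 0.00101), the prostaglandin E receptor Ptger3 from 54.5 and 71.2 to 6.29 and 6.43 CPM (9.87-fold, adjusted p = 0.00288), and Hpgd, which inactivates prostaglandins, rose from 128 and 114 to 233 and 314 CPM (2.25-fold, adjusted p = 0.0125). Hpgd lost its call (adjusted p = 0.101 and 0.159 without intact 1 and 2). Eicosanoid genes that fell and rose numbered 2 and 0 without either intact library, 5 and 4 without castrate 1, 4 and 5 without castrate 2 and 2 and 1 without either Clu library, with a median of -0.05 without castrate 1. Mucosal defence genes that fell and rose numbered 3 and 2 without intact 1, 2 and 3 without intact 2, 14 and 5 without castrate 1 and 8 and 8 without castrate 2. Their median was -1.20 without castrate 1 and 0.03 without castrate 2. Interleukin and chemokine genes that fell and rose numbered 0 and 0 without intact 1, 0 and 1 without intact 2, 14 and 7 without castrate 1, 5 and 14 without castrate 2 and 3 and 1 without either Clu library.

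Single proteases and lysosomal enzymes were called. For matrix and membrane proteases 6 of 87 fell and 4 rose (median log2 fold change 0.30), near the shares of all genes. Mmp7, the epithelial metalloproteinase matrilysin, fell from 318 and 306 to 29.1 and 52.0 CPM (log2 fold change -2.94, SE 0.28, adjusted p = 0.00139), and Ace, angiotensin-converting enzyme, from 685 and 731 to 147 and 176 CPM (log2 fold change -2.13, SE 0.25, adjusted p = 0.00305). Anpep, the apical aminopeptidase N, rose from 34.7 and 38.3 to 393 and 1020.4 CPM (log2 fold change 4.27, SE 0.45, adjusted p = 0.00221), and Plat, tissue plasminogen activator, from 10.6 and 3.95 to 73.6 and 53.7 CPM (8.72-fold, adjusted p = 0.00729). Serpine2, an inhibitor of plasminogen activators and thrombin, fell from 199.6 and 179 to 16.3 and 10.2 CPM (log2 fold change -3.83, SE 0.41, adjusted p = 0.00221). Plat was thus higher, and this inhibitor of it lower, in both castrate libraries. Anpep had a log2 fold change of 3.42 without castrate 2, and Plat of 4.00 without intact 1. Of 37 inhibitors 6 fell and 2 rose. For the lysosome 12 of 71 fell and 4 rose (median log2 fold change -0.32). The glycosidases Glb1 and Gusb fell 4.58-fold and 3.40-fold, from 56.8 and 59.8 to 12.6 and 12.9 CPM and from 55.1 and 51.7 to 15.4 and 15.97 CPM (adjusted p = 0.00195 and 0.0031), Mcoln2, a lysosomal cation channel, fell 8.73-fold (adjusted p = 0.00139), and Ctse, an aspartic protease of barrier epithelia, rose from 5.36 and 5.93 to 78.5 and 116 CPM (log2 fold change 4.10, SE 0.29, adjusted p = 0.000467). Proteases that fell and rose numbered 3 and 2 without intact 1, 2 and 2 without intact 2, 15 and 6 without castrate 1 and 12 and 13 without castrate 2. Their median was -0.48 without castrate 1 and 0.67 without castrate 2. Inhibitors that fell and rose numbered 2 and 0 without either intact library, 11 and 2 without castrate 1, 9 and 5 without castrate 2 and 4 and 1 without either Clu library. Lysosomal genes that fell and rose numbered 5 and 2 without intact 1, 4 and 1 without intact 2, 19 and 7 without castrate 2 and 6 and 4 without either Clu library.

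Several detoxification enzymes fell. Among cytochrome P450, aldehyde dehydrogenase and related genes 12 of 60 fell and 3 rose (median log2 fold change -0.27), and among steroid enzymes 6 of 35 fell and 1 rose (median log2 fold change -0.48). Of 60 antioxidant genes 3 fell and 2 rose. Prdx6, a peroxiredoxin that repairs oxidised membrane lipid, fell from 2304 and 2668 to 259 and 345 CPM (log2 fold change -3.04, SE 0.27, adjusted p = 0.00122). Akr1b3, aldose reductase, fell from 393 and 452 to 31.5 and 43.8 CPM (log2 fold change -3.49, SE 0.22, adjusted p = 0.000439). Aldh1a7, a close copy of a retinaldehyde dehydrogenase, fell 74.3-fold, Aldh7a1 3.48-fold and Sult5a1, a sulphotransferase, 26.5-fold (adjusted p = 0.000464, 0.00241 and 0.00265). Ugt2b34, a glucuronosyltransferase, rose from 0.765 and 0.198 to 21.9 and 32.0 CPM (54.5-fold, adjusted p = 0.000983). Aldh1a7 had a log2 fold change of -5.57 without castrate 1 and -7.13 without castrate 2, and Ugt2b34 of 7.01 and 5.12 without intact 1 and 2. Of 36 BCL2 family members and caspases 2 were called, against 8.61% of all genes: Bik, a death-promoting member, rose 5.57-fold and Casp6 fell 2.60-fold (adjusted p = 0.00855 and 0.0115). Bik lost its call (adjusted p = 0.0755 without intact 1), as did Casp6 (adjusted p = 0.0613 and 0.113 without intact 1 and 2). BCL2 and caspase genes that fell and rose numbered 0 and 0 without intact 1, 0 and 1 without intact 2, 3 and 2 without castrate 1 and 3 and 3 without castrate 2. In the growth arrest list 2 of 35 fell and 3 rose (median log2 fold change 0.03). Gadd45a, one of its members, induced by DNA damage and other stress, rose from 27.5 and 34.3 to 186 and 369.6 CPM (log2 fold change 3.17, SE 0.33, adjusted p = 0.00219). Of 54 cytosolic heat shock genes 5 fell and 0 rose. P450 and dehydrogenase genes that fell and rose numbered 5 and 2 without intact 1, 4 and 0 without intact 2 and 17 and 5 without castrate 1, with a median of 0.03 without intact 1. Steroid enzymes that fell and rose numbered 3 and 1 without intact 1, 2 and 1 without intact 2 and 9 and 2 without castrate 2. Growth arrest genes that fell and rose numbered 0 and 1 without intact 1, 1 and 1 without intact 2, 6 and 5 without castrate 1, 7 and 4 without castrate 2 and 1 and 2 without either Clu library, with a median of -0.22 without intact 2 and -0.18 without castrate 1. Antioxidant genes that fell and rose numbered 3 and 0 without intact 1, 2 and 0 without intact 2, 5 and 8 without castrate 1 and 10 and 3 without castrate 2. Heat shock genes that fell and rose numbered 1 and 0 without either intact library, 11 and 3 without castrate 1 and 8 and 2 without castrate 2.

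Few genes of chromatin and RNA processing were called. Of 98 genes that add or remove histone marks 6 rose and 0 fell (median log2 fold change 0.21), against 4.02% and 4.59% of all genes. Among 104 splicing factors 3 rose and 0 fell. Small nucleolar RNAs, which guide ribosomal RNA modification, and their host genes had a median of 0.73, and 5 of 64 rose and 0 fell. Snora21, one of them, rose from 32.5 and 19.7 to 62.9 and 92.6 CPM (2.98-fold, adjusted p = 0.0245). Snora21 lost its call (adjusted p = 0.0647 and 0.191 without intact 1 and 2). Most of these RNAs lie in introns of their hosts, and their reads and unspliced reads of the host cannot be told apart here. Histone-mark genes that fell and rose numbered 0 and 0 without either intact library, 2 and 11 without castrate 1, 4 and 12 without castrate 2 and 0 and 1 without either Clu library. Splicing factors that fell and rose numbered 0 and 0 without either intact or either Clu library, 1 and 10 without castrate 1 and 0 and 9 without castrate 2. Small nucleolar RNA genes that fell and rose numbered 0 and 0 without either intact library, 2 and 5 without castrate 1, 0 and 10 without castrate 2 and 0 and 3 without Clu 2.

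Of the 1192 called genes 440 were in the lists, and some of the largest changes were outside them. Tcaf3, a regulator of a cation channel, fell from 2514 and 2699.5 to 19.6 and 2.44 CPM (log2 fold change -7.86, SE 0.88, adjusted p = 0.00249). Fcgbp, a mucin-like secreted protein, fell from 2065 and 2779 to 16.6 and 36.4 CPM (log2 fold change -6.52, SE 0.44, adjusted p = 0.000464), Glb1l3, a galactosidase-like gene, from 448 and 669 to 9.15 and 6.36 CPM (71.6-fold, adjusted p = 0.000464), and Lct, lactase, from 30.2 and 21.7 to 0.337 and 0.296 CPM (79.2-fold, adjusted p = 0.000852). Gad2, which makes the transmitter GABA, fell from 36.2 and 60.2 to 0.561 and 1.18 CPM (55.96-fold, adjusted p = 0.000939). Among genes that rose, Sectm1b, a secreted and membrane ligand of T cells, rose from 5.55 and 5.93 to 148 and 225 CPM (log2 fold change 5.02, SE 0.30, adjusted p = 0.000382), and Ppp2r2c, a regulatory subunit of protein phosphatase 2A, from 2.39 and 2.57 to 42.7 and 69.4 CPM (22.5-fold, adjusted p = 0.000804). Mad2l1, a spindle checkpoint gene, rose from 3.44 and 3.75 to 65.0 and 107 CPM (log2 fold change 4.57, SE 0.36, adjusted p = 0.000804). AI838599 had 0 counts in both intact libraries and 62.9 and 34.1 CPM in castrate, at least 346-fold higher if 3 counts are taken for the intact group, and Psg25 likewise had 0 counts and then 11.6 and 12.7 CPM, at least 82.9-fold higher. Adjusted p was 0.00195 for AI838599 and 0.00673 for Psg25. Tcaf3 had a log2 fold change of -10.05 without castrate 1 and -7.06 without castrate 2, and Fcgbp of -7.19 without castrate 2, and Gad2 of -6.40 without castrate 2.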

How the data were processed

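RNA-seq read counts per gene were deposited by the authors as whole numbers, made from stranded total RNA libraries per the labels' protocols and, per the submitters' processing notes, with FastQC 0.11.9, STAR 2.7.9a and featureCounts (Subread 2.0.1) on GRCm39. Handling of strand and of multiply mapped reads is not given in the sources used here. All 6 libraries were scaled by TMM and filtered with filterByExpr, leaving 13846 of 24498 genes. Castrate and intact were compared with edgeR 4.0.16 (quasi-likelihood test, Benjamini-Hochberg over all tested genes, R 4.3.3), with 3 groups sharing the spread. A group at 0 was bounded by a floor of 3 counts over the group, for counting error only.

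The members and the lists were chosen with earlier results of these data known. Per list, up to 4 called genes with at least 5 CPM in the higher group and no overlap were eligible, in order of the largest adjusted p with an Nkx library left out, and the gene of highest mean CPM. Outside the lists, the 12 largest folds per direction at 10 CPM or more were eligible. Other named genes were chosen after their values were seen, and some eligible genes are not reported here. Promoter sequences are RefSeq's, on GRCm38.p6, and 10687 of 13846 tested genes had one. On simulated data with 200 changed genes, the fit called 10% of 2-fold and 58.8% of 4-fold changes, and 9.83% of its calls were unchanged genes. Alternatives were limma-voom 3.58.1, DESeq2 1.42.0, a fit of the Nkx libraries alone, a replicate block, each library left out, other filters, RLE scaling and TMM without the 50 most abundant genes.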

Additional observations from a re-analysis of the deposited data

How the results depend on the processing

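Counts of genes higher and lower in Nkx castrate were 556 and 636, and moved to 1197 and 1103 without a filter on low counts, 1021 and 994 with DESeq2 and 297 and 374 with only the Nkx libraries. They were 405 and 602 with limma-voom, 572 and 616 with RLE scaling, 541 and 638 without the 50 most abundant genes and 562 and 637 with the other filter. Leaving out 1 library gave between 72 and 1220 higher genes and between 137 and 1323 lower ones. With 2 libraries per group the fit without 1 of them assumes that the lone library varies like the other groups. A fit with the replicate number as a block called 711 and 800. The correlation of same-numbered libraries' deviations was 0.0901 between Nkx intact and Nkx castrate and 0.0437 between Nkx and Clu intact. It was 0.235 between Nkx castrate and Clu intact. No label links same-numbered libraries, and with 2 libraries per group these correlations cannot settle whether they share a batch. Of the named genes, the sign turned for Xbp1, which was not called: its log2 fold change was -0.13 without intact 1 and 0.34 without intact 2, and the cause was not tested. The depth, 10220118 to 17412874 counts per library, and the number of libraries limit what a list with few calls can show. In the simulated data most 2-fold changes were not called. Those data held fewer changed genes than were called here, which makes an adjusted cutoff stricter. Their rates of detection therefore do not carry over to these lists.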

Other observations

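Ahr, Tiparp, Runx1, Stc2, Nedd4l and Ahnak were in none of the lists, were chosen after their values were seen, and kept their call when each Nkx library was left out in turn. Ahr, the aryl hydrocarbon receptor, a ligand-activated transcription factor, rose from 79.0 and 94.0 to 441 and 508 CPM (log2 fold change 2.45, SE 0.19, adjusted p = 0.000742). Tiparp, a feedback repressor that this receptor induces, rose from 73.5 and 50.7 to 245 and 286 CPM (log2 fold change 2.10, SE 0.23, adjusted p = 0.00249). Cyp1a1, the best known target of the receptor, had 0 counts in both intact libraries and 0.449 and 4.14 CPM in castrate, and did not pass the test (adjusted p = 0.0848). Cyp1a1 passed without the filter on low counts (adjusted p = 0.00984), in DESeq2 (adjusted p = 0.00984) and without castrate 1 (adjusted p = 0.0101). The receptor and its repressor were thus higher in both castrate libraries, and the target gene was low in all 4. Runx1, a transcription factor of blood and some epithelia, rose from 85.5 and 56.1 to 305 and 409 CPM (log2 fold change 2.33, SE 0.25, adjusted p = 0.00233).

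Stc2, stanniocalcin 2, a secreted glycoprotein, rose from 9.66 and 12.8 to 198 and 208 CPM (log2 fold change 4.17, SE 0.24, adjusted p = 0.000251). Nedd4l, a ubiquitin ligase that removes the epithelial sodium channel from the membrane, rose from 62.6 and 68.4 to 219 and 227 CPM (log2 fold change 1.77, SE 0.16, adjusted p = 0.00127). Ahnak, a very large scaffold protein of the cell cortex, rose from 1469 and 1341 to 7358 and 12363 CPM (log2 fold change 2.81, SE 0.28, adjusted p = 0.00183). For each of these genes that rose, both castrate libraries lay above both intact ones.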
